A study of Saccharomyces cerevisiae with 8 samples.

Results

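The subject here is the set of 10 budding yeast genes for coenzyme Q synthesis, COQ1 to COQ10, taken by systematic identifier from a count table of 7122 features. All 10 were in the table and all 10 passed the filter on low counts, so every one of them was tested. COQ7 is listed under its other name, CAT5, in the RefSeq annotation. Saccharomyces cerevisiae of the W303 background, with PDR1 and PDR3 deleted, a gene pair for activators of drug efflux, was grown to log phase in galactose medium. Cultures then received clioquinol (CQ, a metal-binding 8-hydroxyquinoline) at 0.8 µM, the thione 10{3,3,1} (active, per the labels) at 20 µM, the thione 11 (inactive, per the labels) at 20 µM, or the DMSO solvent alone, for about 6 h. Each of the 4 groups had 2 libraries, and both deletions were shared by all groups, controls included. Total RNA was sequenced. The growth protocol gives the doses in millimolar and calls the strain wild-type. The micromolar doses of the sample and series labels and the deletion strain are used here.

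Coenzyme Q is a lipid of the inner mitochondrial membrane that takes electrons from dehydrogenases and hands them to the cytochrome bc1 complex. It is built from an isoprenoid tail, made through the mevalonate pathway, and an aromatic ring that comes from tyrosine or, in yeast, also from para-aminobenzoate. Several of the Coq proteins gather in a complex on the membrane, and 2 of them have links to iron. Coq7 is a hydroxylase with a di-iron centre, and Coq6 is a flavin hydroxylase that gets its electrons from the mitochondrial ferredoxin Yah1 through the reductase Arh1. The question was how these 2 genes and the other 8 behaved across the 4 groups.

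All 10 are single-exon genes, overlapped by no other RefSeq gene, and are spread over 7 chromosomes (RefSeq assembly R64, coding sequence). COQ1 (YBR003W) lies at chrII:242809-244230 on the plus strand, COQ2 (YNR041C) at chrXIV:700541-701659 on the minus strand and COQ3 (YOL096C) at chrXV:138107-139045 on the minus strand. COQ4 (YDR204W) lies at chrIV:858137-859144 on the plus strand and COQ5 (YML110C) at chrXIII:50031-50954 on the minus strand. COQ6 (YGR255C) lies at chrVII:1002523-1003962 on the minus strand and COQ7 (YOR125C) at chrXV:559030-559731 on the minus strand. COQ8 (YGL119W) lies at chrVII:284442-285947 on the plus strand, COQ9 (YLR201C) at chrXII:549511-550293 on the minus strand and COQ10 (YOL008W) at chrXV:310312-310935 on the plus strand.

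Library totals ran from 12076141 to 19021672 counts. Counts of the 10 genes ran from 150 (COQ7) to 2861 (COQ5) in a library, a counting error of 8.17% to 1.87%, so the spread between replicates and not depth set most of the error below. Replicates differed well beyond sampling noise, with a chi-square per degree of freedom of 102.8 in CQ, 54.13 with the active thione, 45.03 with the inactive thione and 22.82 in DMSO. PDR1 and PDR3 had 0 counts in all 8 libraries. The cultures carried the mRNAs of alpha cells. Summed levels of 4 alpha-specific genes were 544 to 861 CPM (counts of a gene relative to the scaled library total) with CQ, 1070 to 1335 with the active thione, 1063 to 1095 with the inactive thione and 1503 to 1844 in DMSO. All 4 genes fell with CQ, where 8.39% of all tested features fell. With the active thione SAG1 fell and the other 3 did not pass, where 1.37% of all tested features changed. Summed levels of 4 a-specific genes were 7.24 to 8.14 CPM with CQ, 6.70 to 7.52 with the active thione, 7.15 to 7.16 with the inactive thione and 6.33 to 7.67 in DMSO, and the a-factor genes MFA1 and MFA2 were at or near 0. Those of 4 sporulation genes were 20.0 to 22.5 CPM with CQ, 33.8 to 37.7 with the active thione, 37.5 to 40.2 with the inactive thione and 30.9 to 32.6 in DMSO. Of these 4 genes SPO11 and SPS4 fell with CQ, while IME1 and NDT80 did not pass. The part of the shifts in alpha and sporulation genes in the results below was not tested.

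In the DMSO cultures the genes stood at middling levels, which are compared here per kilobase of coding sequence. COQ5, the ring C-methyltransferase, was highest at 156 ± 4.95 CPM per kilobase (SD, n = 2), and COQ7 was lowest at 22.9 ± 5.85. Among all tested coding features COQ5 was at percentile 80.7 and COQ7 at percentile 26.6. The order between them was COQ6 (71.7 ± 11.5), COQ9 (63.7 ± 8.67), COQ10 (55.8 ± 0.168), COQ1 (48.7 ± 4.87), COQ2 (46.3 ± 5.84), COQ8 (35.5 ± 0.425), COQ4 (32.4 ± 7.17) and COQ3 (32.2 ± 8.80), all in CPM per kilobase (SD, n = 2). Libraries of neighbours in this order overlapped for COQ6 and COQ9, for COQ1 and COQ2, and for each step from COQ8 down to COQ7. COQ5 had rank 1 and COQ7 rank 10 in each of the 4 groups, while COQ6 had rank 5 with CQ and rank 2 in the other 3 groups.

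CQ lowered COQ6 and COQ2 and left the other 8 genes short of the threshold. COQ6 mRNA fell 2.02-fold and COQ2 mRNA 1.54-fold. Thus 2 of 10 genes fell and 0 rose, where 8.39% of the 5696 tested features fell, 4.92% rose and 13.3% changed in either direction. The median log2 fold change of the 10 was -0.35, against 0.03 over all tested features. Of the 10 genes 9 had a value below 0, as did 46.8% of all features, and 5 had both CQ libraries below both DMSO libraries, as did 27.6% of all features. A fall of an mRNA is given relative to the library total, and in bulk cultures fewer cells with the mRNA and less mRNA per cell cannot be told apart.

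**Figure D1:**
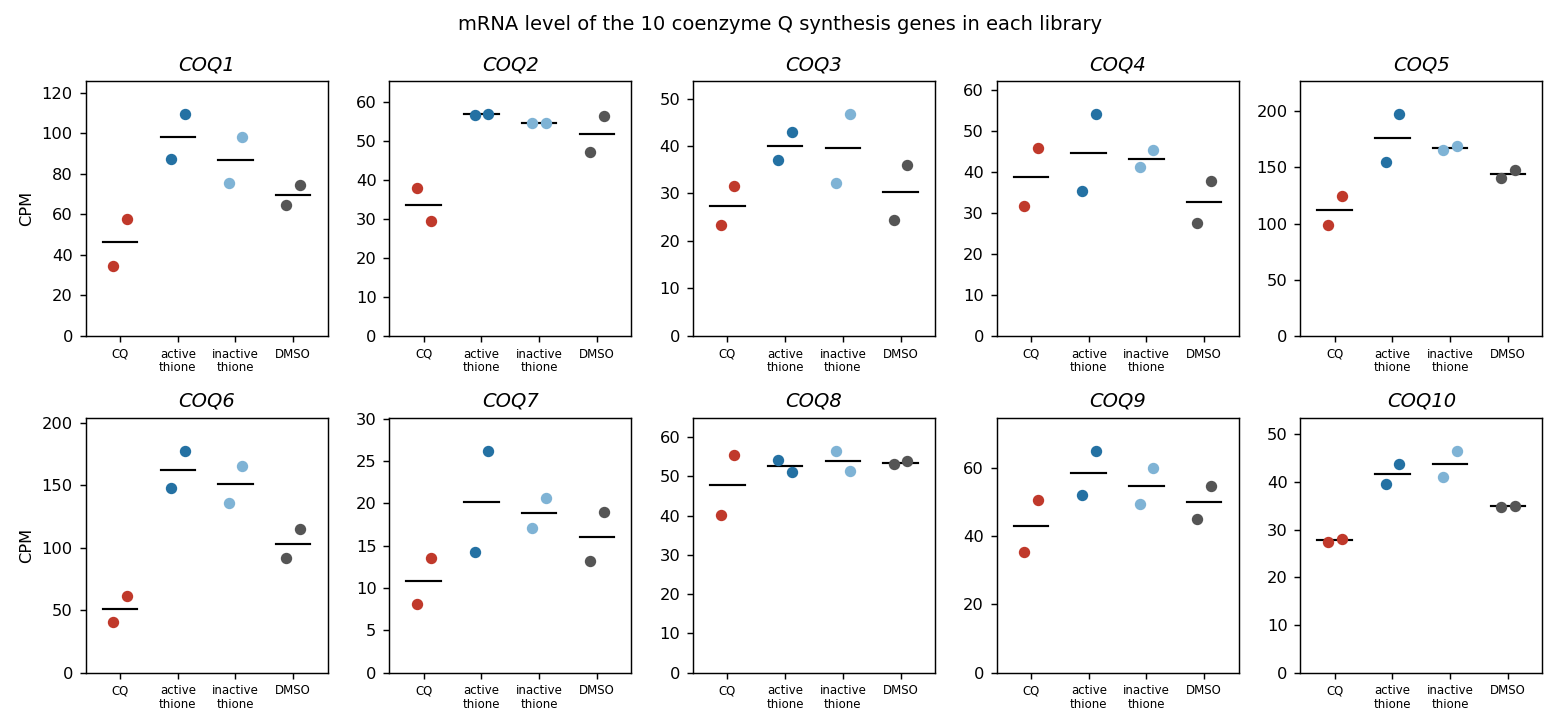
Level in CPM (vertical axis, from 0, its own range in each panel) of the 10 genes in each library, by group. Points are single libraries and lines are group means of 2 libraries; COQ6 had 40.8 and 61.2 CPM with CQ, below 91.6 and 115 in DMSO, and both thione groups lay above DMSO.

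The tail is made and attached by the products of COQ1 and COQ2. COQ1, the hexaprenyl diphosphate synthase gene, had 34.4 and 57.7 CPM with CQ, against 64.4 and 74.2 CPM in DMSO. The groups did not overlap, but the log2 fold change of -0.59 (95% interval -1.14 to -0.04) did not pass over all features (edgeR adjusted p = 0.15). Without CQ replicate 2 it was -1.04 and passed (edgeR adjusted p = 0.0088). COQ2, whose product joins the tail to the ring, had 37.9 and 29.4 CPM with CQ, against 47.2 and 56.5 CPM in DMSO. The fold change was -0.62 ± 0.17 on the log2 scale (SE; edgeR adjusted p = 0.0366), lower in both CQ libraries than in either DMSO library. The COQ2 call rested on few libraries. Leaving out DMSO replicate 1 or 2 gave edgeR adjusted p = 0.0828 or 0.238, and a fit of CQ and DMSO alone gave 0.0955. Leaving out CQ replicate 2 gave 0.0598, active thione replicate 1 or 2 gave 0.0602 or 0.0603, and the first inactive thione library 0.0611.

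Ring hydroxylation is the step with the links to iron. COQ6 had 40.8 and 61.2 CPM with CQ, against 91.6 and 115 CPM in DMSO, so both CQ libraries were below both controls. On the log2 scale this was -1.02 ± 0.22 (SE, 95% interval -1.51 to -0.53, edgeR adjusted p = 0.0131), the lowest of the 10. It passed in 12 of 13 alternatives, with -1.37 to -0.76 over them, and without DMSO replicate 2 it was -0.85 (edgeR adjusted p = 0.0982). COQ7 had 8.08 and 13.5 CPM with CQ, against 13.2 and 19.0 CPM in DMSO. These groups overlapped narrowly, and the log2 fold change of -0.57 ± 0.35 (SE) had an interval of -1.35 to 0.20 (edgeR adjusted p = 0.312). A fall of COQ7 as large as that of COQ6 and no change at all both lie within that interval.

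Neither methyltransferase gene passed with CQ. COQ5 had 98.8 and 125 CPM with CQ, against 141 and 147 CPM in DMSO, with a log2 fold change of -0.37 (interval -0.74 to 0.01, edgeR adjusted p = 0.182). It passed without CQ replicate 2 (-0.58, edgeR adjusted p = 0.039). COQ3, the O-methyltransferase gene, had 23.3 and 31.5 CPM with CQ, against 24.4 and 36.1 CPM in DMSO. The COQ3 libraries overlapped, and the interval was -0.71 to 0.43.

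Genes for the proteins that hold the pathway together, or help coenzyme Q work, did not pass with CQ. COQ4, needed for the complex and for a ring substitution step, had 31.6 and 45.7 CPM with CQ, against 27.6 and 37.8 CPM in DMSO, the one gene of the 10 with a value above 0 (0.24, interval -0.33 to 0.82). COQ8, for an atypical kinase-like ATPase, had 40.2 and 55.5 CPM with CQ, against 53.1 and 54.0 CPM in DMSO (-0.16, interval -0.55 to 0.22). COQ9, for a lipid-binding partner of Coq7, had 35.4 and 50.7 CPM with CQ, against 45.1 and 54.7 CPM in DMSO (-0.21, interval -0.68 to 0.26). In all 3 the CQ and DMSO libraries overlapped. COQ10, for a lipid-binding protein that helps coenzyme Q work in respiration, had 27.5 and 28.1 CPM with CQ, against 34.8 and 34.9 CPM in DMSO. Its replicates lay close together and apart from the controls, yet the log2 fold change of -0.33 (interval -0.66 to 0.01) did not pass (edgeR adjusted p = 0.187).

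**Figure D2:**
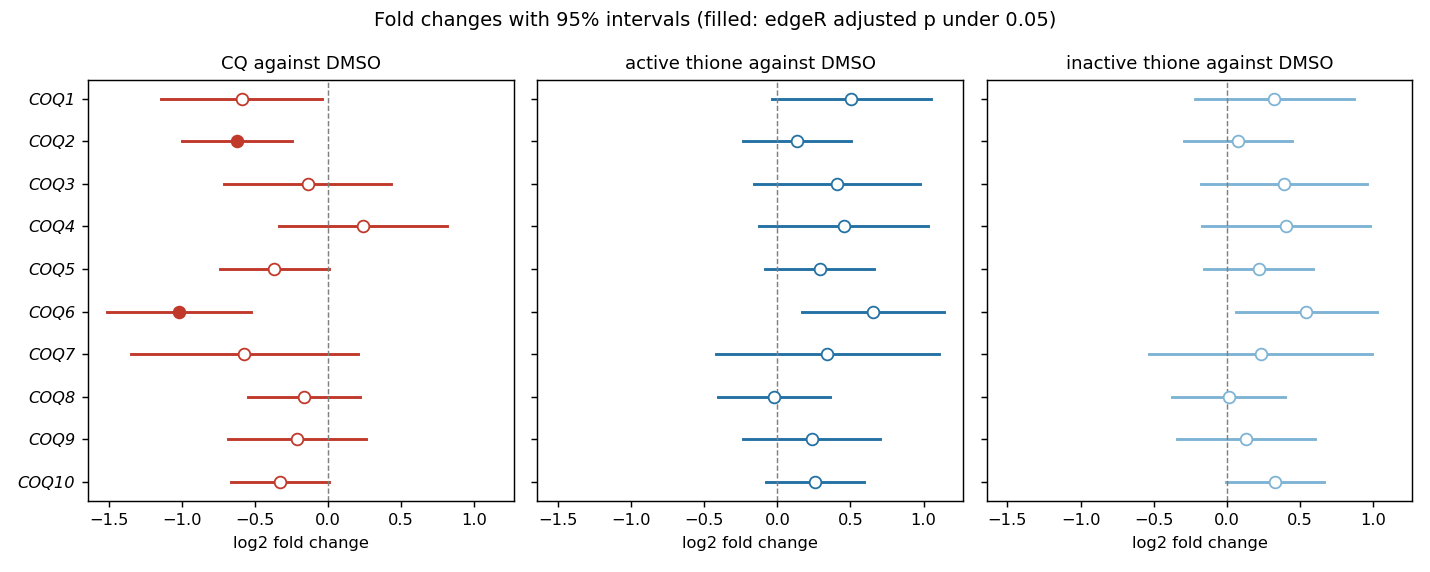
Log2 fold change against DMSO (horizontal axis) of each gene with CQ, the active thione and the inactive thione. Points are fitted values, lines are 95% intervals and filled points have edgeR adjusted p under 0.05; the filled points are COQ6 (-1.02) and COQ2 (-0.62) with CQ.

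Set against the other 8 genes inside each library, a measure that does not depend on library scaling, COQ6 lay apart from DMSO with each compound and COQ7 overlapped it. The log2 CPM of COQ6 minus the mean log2 CPM of the 8 was 0.13 and 0.38 in the CQ libraries, 1.37 and 1.40 with the active thione, 1.26 and 1.37 with the inactive thione, and 0.96 and 1.06 in DMSO. COQ6 was thus nearest to the other genes in both CQ libraries, and farthest above them in the 4 thione libraries. The group mean was lower than in DMSO by 0.75 with CQ (compound minus DMSO -0.75), and the compound minus DMSO value was 0.38 for the active thione and 0.31 for the inactive one. Against the median of the other 8 genes in place of their mean, the COQ6 value for the inactive thione was 0.48. For COQ7 the same measure was -2.19 and -1.79 with CQ, -1.99 and -1.35 with the active thione, -1.72 and -1.62 with the inactive thione, and -1.83 and -1.54 in DMSO. The COQ7 libraries of each compound overlapped those of DMSO, with compound minus DMSO values of -0.31 for CQ, 0.0077 for the active thione and 0.0076 for the inactive thione (0.18 for the inactive thione against the median). The CQ value of COQ7 was close in size to that of COQ6 with the inactive thione. Groups of 2 against 2 can reach no two-sided exact permutation p below 0.333, and these differences were not tested.

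**Figure D3:**
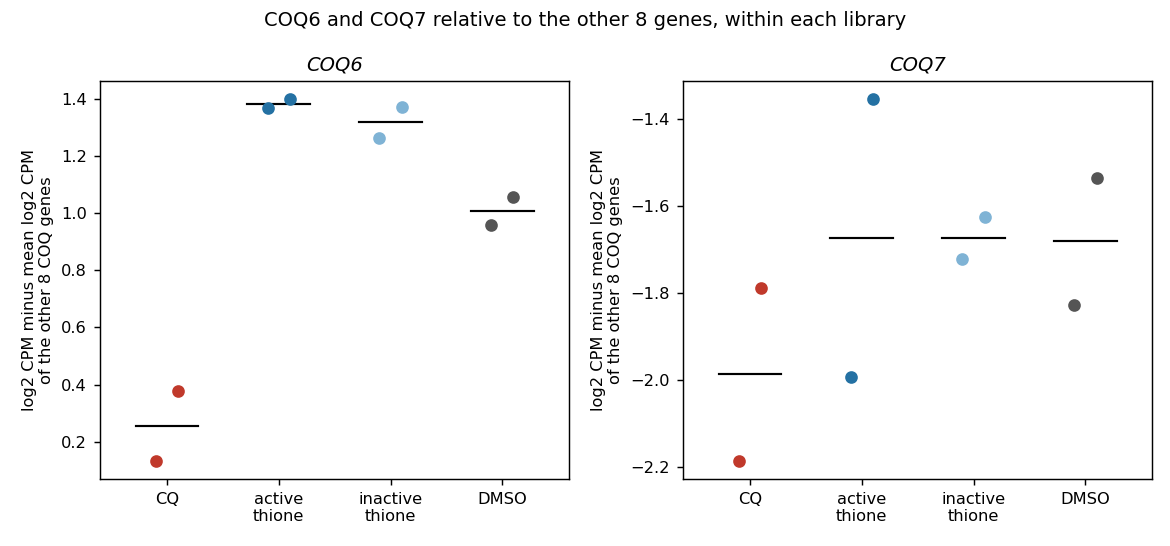
Log2 CPM of COQ6 (left) and COQ7 (right) minus the mean log2 CPM of the other 8 genes in the same library (vertical axes, which differ between the panels and do not start at 0). Points are libraries and lines are group means; COQ6 is at 0.13 and 0.38 with CQ and at 0.96 to 1.40 in all other libraries.

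Of the 9 partner genes fixed as a list, 2 fell with CQ and 0 rose, where 8.39% of all features fell and 4.92% rose. Their median log2 fold change was -0.27. HFD1, whose aldehyde dehydrogenase acts in making the ring precursor 4-hydroxybenzoate, had 31.3 and 62.2 CPM with CQ, against 97.1 and 92.0 CPM in DMSO (-1.02 ± 0.26, SE, edgeR adjusted p = 0.0295). Leaving out DMSO replicate 1 or 2 gave 0.133 or 0.0925, active thione replicate 1 or 2 gave 0.0549 or 0.0542, the first inactive thione library 0.0519, and a fit of CQ and DMSO alone 0.1. CQD2, for a mitochondrial protein that affects how coenzyme Q is spread between membranes, had 83.8 and 73.2 CPM with CQ, against 118 and 122 CPM in DMSO (-0.61 ± 0.15, SE, edgeR adjusted p = 0.024, and 0.12 or 0.141 without a DMSO library). Both genes were below DMSO in both CQ libraries.

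The electron donors of Coq6 did not pass. YAH1 had 22.5 and 15.1 CPM with CQ, against 20.5 and 18.7 CPM in DMSO (-0.06, interval -0.56 to 0.45), and ARH1 had 63.0 and 52.6 CPM with CQ, against 52.9 and 57.0 CPM in DMSO (0.07, interval -0.27 to 0.42). COQ11 (0.02), CQD1 (-0.11), the phosphatase gene PTC7 (-0.27), PUF3 (-0.38) and the mitochondrial peptidase gene OCT1 (-0.55, edgeR adjusted p = 0.0638) did not pass either. OCT1 passed with DESeq2 (adjusted p = 0.0369), with no filter (edgeR adjusted p = 0.0475) and without CQ replicate 2 (0.0181).

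Among the 10 ring precursor genes 1 fell with CQ and 0 rose, near the 8.39% and 4.92% of all features, with a median of -0.20. It was ARO3, for an enzyme that opens the shikimate pathway (-1.11 ± 0.18, SE, edgeR adjusted p = 0.00257), while its paralogue ARO4 did not pass (-0.28, edgeR adjusted p = 0.312). The tail precursor genes of the mevalonate pathway moved more, 8 of 9 lower and 0 higher, with a median of -1.34. HMG1, for the main HMG-CoA reductase, had 140 and 160 CPM with CQ, against 1333 and 931 CPM in DMSO, a 7.56-fold fall, while its paralogue HMG2 did not pass (0.15, edgeR adjusted p = 0.546). ERG13 fell 3.58-fold and ERG12 2.52-fold. ERG20, for the last shared enzyme before the tail, fell by 0.76, a call lost on leaving out DMSO replicate 1, DMSO replicate 2 or CQ replicate 1 (edgeR adjusted p = 0.236, 0.0976 and 0.14). ERG10 lost its call without DMSO replicate 1 (0.0584), and ERG8 lost it on leaving out the first DMSO or the first CQ library (0.121 and 0.0737).

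The genes for enzymes that use coenzyme Q fell by far larger factors. Of 10 genes for enzymes that reduce it, 7 fell and 1 rose, where 8.39% of all features fell and 4.92% rose. Their median log2 fold change was -4.14. CIR2, a flavoprotein dehydrogenase gene, had 4.42 and 3.89 CPM with CQ, against 143 and 175 CPM in DMSO, a 38.1-fold fall (edgeR adjusted p = 3.77e-07). SDH2, for the iron-sulfur subunit of succinate dehydrogenase, fell 29.1-fold, and NDI1, for the internal NADH dehydrogenase, 23.7-fold. NDE2, for an external NADH dehydrogenase, rose 2.54-fold, a call lost without DMSO replicate 1 (edgeR adjusted p = 0.0546), while NDE1 (-0.70) and GUT2 (0.61) did not pass. NDE1 passed with DESeq2 (adjusted p = 0.0191) and without CQ replicate 1 (-1.18, edgeR adjusted p = 0.0066). All 9 listed nuclear genes for the bc1 complex, which oxidises coenzyme Q, fell, with a median of -4.02. Of these CYT1 fell 48.1-fold, RIP1 39.9-fold and QCR7 20.1-fold. The largest fall among COQ1 to COQ10 was 2.02-fold, and the smallest in the bc1 list was 8.02-fold, for QCR6.

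**Figure D4:**
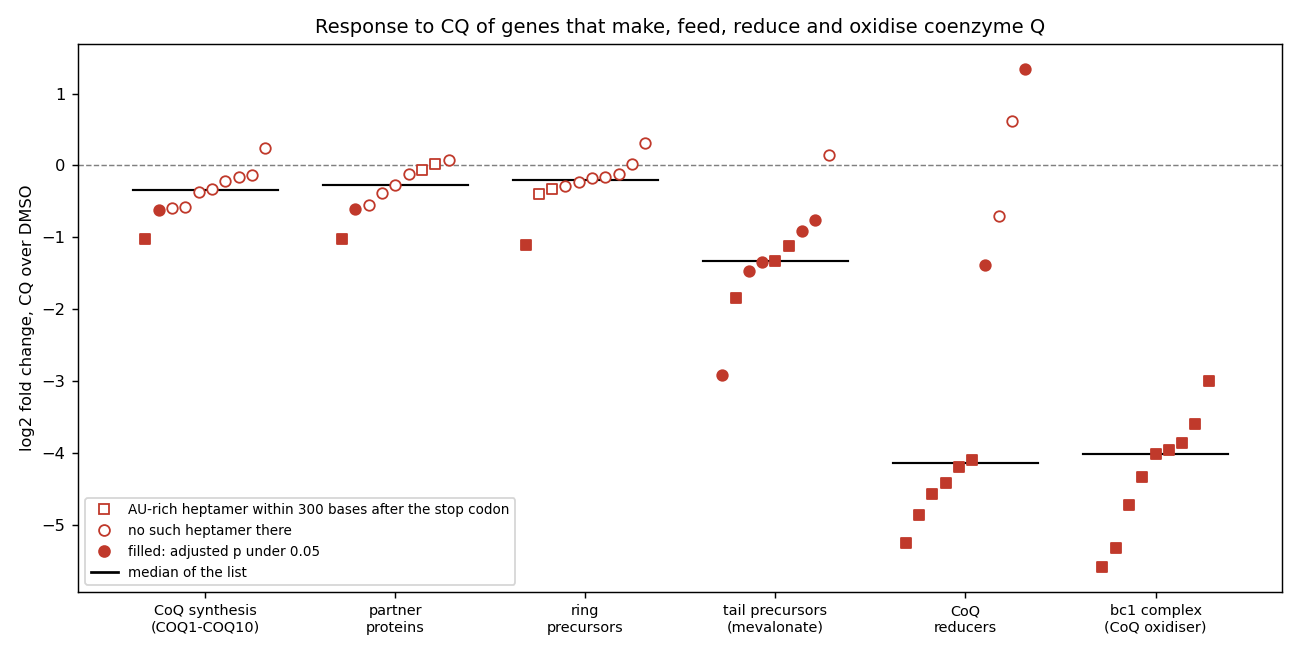
Log2 fold change of CQ over DMSO (vertical axis) for COQ1 to COQ10 and 5 lists of genes around coenzyme Q. Each symbol is a gene, lines are list medians (-0.35 for the COQ genes, -4.14 for reducers, -4.02 for bc1), filled symbols passed the test and squares mark genes with an AU-rich heptamer after the stop codon, which among the COQ genes is COQ6.

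Levels of some regulators moved with CQ as well. TIS11, whose product (also called Cth2) binds AU-rich elements in mRNAs of iron-using proteins and destabilises them, had 263 and 281 CPM with CQ, against 1.84 and 2.42 CPM in DMSO, 129-fold higher. HAP4, for the activating subunit of the CCAAT-binding HAP complex of respiratory genes, had 64.3 and 61.6 CPM with CQ, against 327 and 286 CPM in DMSO, a 4.87-fold fall. CTH1, a relative of TIS11, fell by 0.57 (edgeR adjusted p = 0.0391, and 0.0561 to 0.334 with 1 library left out in 7 of the 8 cases, and 0.103 with the compared groups alone), and HAP1, HAP2, HAP3 and HAP5 did not pass.

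The core of the AU-rich element that Tis11 binds, TATTTAT, was searched on the gene's strand in the 300 bases after each stop codon of RefSeq assembly R64. The windows were not ended at neighbouring genes and come from the reference strain, not W303. COQ6 was the one gene of the 10 that held it, against 1021 of 5997 coding genes. The share among the 10 was thus below that among all coding genes. All 9 bc1 genes and 6 of the 10 reducer genes held it. Those 6 were NDI1, SDH1, SDH2, SDH3, SDH4 and CIR2, with log2 fold changes from -5.25 to -4.10 with CQ, while NDE1, NDE2, GUT2 and PUT1, at -1.39 to 1.34, had none in the window. The same 6, and NDE1, also held CCAAT in the promoter window described below, and the part of either motif was not tested. The heptamer stood after HFD1 too, and also after YAH1 and COQ11, which did not pass. Of the precursor lists, 3 of 10 ring genes (ARO2, ARO3 and TYR1) and 3 of 9 tail genes (ERG13, ERG12 and IDI1) held it. ARO2 and TYR1 did not pass with CQ, and TIS11, which rose, held it as well. COQ2, CQD2, HMG1, ERG10, ERG8, MVD1 and ERG20 fell with CQ and had none in the window. Of all tested coding features that fell with CQ 51.7% held the heptamer (244 of 472), of those that rose 12.2% (34 of 278) and of those that did not pass 14.7% (703 of 4768). These are matches of letters, and whether Tis11 acts there was not tested. The COQ6 site is shown with 1 site each of a bc1 gene and 3 reducer genes, so that it can be set beside those of genes that fell much further. Each is written 5′ to 3′ on the strand of the gene with the heptamer in capitals, and none of them lies in another RefSeq gene.
COQ6, chrVII:1002464-1002490, minus strand: ttttaagaatTATTTATgcaattaaat
CYT1, chrXV:448561-448587, plus strand: tcggccacccTATTTATtttttcactg
CIR2, chrXV:1009120-1009146, plus strand: caggattcatTATTTATttaattattt
NDI1, chrXIII:28102-28128, minus strand: gatgttttatTATTTATatattcccac
SDH4, chrIV:818607-818633, plus strand: tatttactagTATTTATttattattat
The heptamer began 43 bases after the stop codon of COQ6 and occurred once in its window, as with CYT1 and RIP1. CIR2 held it 3 times and SDH4 4 times. With CQ, CYT1 fell 48.1-fold, RIP1 39.9-fold, CIR2 38.1-fold and SDH4 17.1-fold, against 2.02-fold for COQ6. Whether the number of sites matters was not tested.

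A feature that more of the genes had in common was the Puf3 motif. Puf3 is an RNA-binding protein that acts on mRNAs of mitochondrial proteins. Its motif TGTANATA, searched on the gene's strand, stood in the 300 bases after the stop codon of 6 of the 10 genes. It stood there in 16.2% of coding genes, 3 of 9 partner genes, 2 of 10 reducer genes and 1 of 9 bc1 genes. None of the 10 ring and 9 tail precursor genes held it. The 6 sites are given because more of the 10 genes held this motif than the heptamer. The motif is in capitals, 5′ to 3′ on the strand of the gene. No other RefSeq gene covers any of them, and in COQ6 the motif does not overlap the heptamer.
COQ1, chrII:244301-244328, plus strand: atattctataTGTAAATAgtttttatat
COQ3, chrXV:138063-138090, minus strand: ggtatctgacTGTAAATAtcttcttata
COQ5, chrXIII:49808-49835, minus strand: aataagtgacTGTACATAatataataat
COQ6, chrVII:1002499-1002522, minus strand: gaggtaTGTAAATAgaaatagact
COQ8, chrVII:285955-285982, plus strand: ccccgctattTGTATATAtgcatatctt
COQ9, chrXII:549422-549449, minus strand: gttacataatTGTATATAaaagaaaatt
Genes with the motif had log2 fold changes with CQ from -1.02 (COQ6) to -0.14 (COQ3), and the 4 without it, COQ2, COQ4, COQ7 and COQ10, from -0.62 (COQ2) to 0.24 (COQ4), so the ranges overlapped.

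In the promoter window, 250 bases before to 50 bases after the start codon, CCAAT was searched on both strands. It stood in 43.3% of coding genes, 7 of 9 bc1 genes and 7 of 10 reducer genes, which were NDE1 and the 6 with the heptamer. Among the other lists, 8 of 10 ring precursor, 4 of 9 tail precursor and 2 of 9 partner genes held it. Of the 10 COQ genes 6 held it. In 4 of the 6 it stood close before the start codon, at -51 (COQ7), -44 (COQ9), -41 (COQ6) and -33 (COQ8). These are shown with CCAAT, or its reverse complement ATTGG, in capitals on the strand of the gene.
COQ6, chrVII:1003989-1004013, minus strand: agtaactcaaATTGGtctttcagtg
COQ7, chrXV:559768-559792, minus strand: ctcctccaaaCCAATtcaaggaata
COQ8, chrVII:284399-284423, plus strand: tggcatccttATTGGgacctgttcg
COQ9, chrXII:550323-550347, minus strand: gtacttcaccCCAATttggaaagag
COQ5 held it farther up, at -239, and COQ10 held 2 copies, at -203 and -193, inside a neighbouring gene. COQ2, which fell with CQ, had none in the window. The site of the iron regulator Aft1, TGCACCC, searched on both strands, was in 0 of the 10 promoter windows and in 1.3% of all.

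The active thione at 20 µM left all 10 genes short of the threshold, with most values above 0. By edgeR 0 of 10 passed, where 1.37% of all features changed (1.11% higher). At an unadjusted p under 0.05 there was 1, COQ6, and DESeq2 called 0. The share of all features at that unadjusted p was not counted, so such counts, here and below, have no background beside them. Values above 0 were found for 9 of the 10 genes, as for 54.2% of all features, and 6 had both active thione libraries above both DMSO libraries, as did 29.8% of all features. The median log2 fold change was 0.31, against 0.03 over all features. COQ6 had 147 and 177 CPM with the active thione, against 91.6 and 115 CPM in DMSO (0.65 ± 0.22, SE, interval 0.17 to 1.14, edgeR adjusted p = 0.218). COQ1 had 87.3 and 109 CPM with the active thione, against 64.4 and 74.2 CPM in DMSO (0.51, interval -0.04 to 1.05). In both genes the groups did not overlap. COQ7 had 14.2 and 26.2 CPM with the active thione, against 13.2 and 19.0 CPM in DMSO, and this spread between replicates gave an interval of -0.42 to 1.10. COQ8 was the gene nearest to its control level, with 54.2 and 51.2 CPM with the active thione, against 53.1 and 54.0 CPM in DMSO (-0.02, interval -0.41 to 0.36).

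The inactive thione, given alike at 20 µM, also left the 10 genes short of the threshold. By edgeR 0 of 10 passed, where 0.158% of all features changed (0.14% higher), with 1 at an unadjusted p under 0.05 (COQ6) and 0 by DESeq2. All 10 values were above 0, as were 53.9% of all features, but COQ8 was at 0.01 and below 0 in 7 of 13 alternatives, and COQ2, COQ7 and COQ9 were below 0 in 1 each, and 5 genes had both inactive thione libraries above both DMSO libraries, as did 32.2% of all features. The median was 0.28, against 0.03 over all features. COQ6 had 136 and 165 CPM with the inactive thione, against 91.6 and 115 CPM in DMSO (0.54 ± 0.22, SE, interval 0.06 to 1.03, edgeR adjusted p = 0.373). COQ10 had 41.0 and 46.5 CPM with the inactive thione, against 34.8 and 34.9 CPM in DMSO (0.33, interval -0.01 to 0.66). COQ7 had 17.04 and 20.6 CPM with the inactive thione, against 13.2 and 19.0 CPM in DMSO (0.23, interval -0.53 to 1.00). Both thione comparisons and the CQ comparison use the same 2 DMSO libraries, so they are not independent of each other.

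Set against each other at 20 µM, the active and the inactive thione did not differ past the threshold in any of the 10 genes. By edgeR 0 of 10 passed, where 0.123% of all features changed, and 0 had an unadjusted p under 0.05, nor did DESeq2 call any. The log2 fold changes ran from -0.07 (COQ10) to 0.18 (COQ1), with a median of 0.06, against 0.01 over all features. For COQ6 the interval was -0.37 to 0.59 and for COQ7 -0.65 to 0.87, and differences of up to those sizes lie within them. The interval for COQ8 was -0.42 to 0.35 and for COQ2, which had 56.8 and 56.9 CPM with the active thione, against 54.6 and 54.6 CPM with the inactive one, -0.31 to 0.43. COQ2 was the 1 gene of 10 with both active libraries above both inactive ones, as were 15.4% of all features.

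Among the partners, the ferredoxin gene YAH1 lay highest relative to DMSO under both thiones. YAH1 had 31.1 and 40.5 CPM with the active thione and 33.7 and 37.1 CPM with the inactive thione, against 20.5 and 18.7 CPM in DMSO. All 4 thione libraries were above both DMSO libraries, but neither comparison passed (0.87 ± 0.22 and 0.85 ± 0.22, SE, edgeR adjusted p = 0.121 and 0.279). For the active thione it passed with DESeq2 (adjusted p = 0.0288), with the compared groups alone (edgeR adjusted p = 0.0496) and on leaving out the first or second CQ library (0.049 and 0.0479). The other 8 partners did not pass with either thione. Of the ring precursor genes ARO9, for an aromatic aminotransferase, fell with the active thione, with 25.2 and 34.2 CPM, against 61.4 and 85.8 CPM in DMSO (-1.30 ± 0.25, SE, edgeR adjusted p = 0.0399). The ARO9 call ended without either active thione, inactive thione or DMSO library (edgeR adjusted p = 0.0516 to 0.267). TIS11 was the 1 regulator called, with 9.80 and 14.8 CPM with the active thione, against 1.84 and 2.42 CPM in DMSO (2.56 ± 0.28, SE) and 1.504 and 2.529 CPM with the inactive thione (2.61 ± 0.29, SE). The call against DMSO was lost without DMSO replicate 1 (edgeR adjusted p = 0.0832). That against the inactive thione was lost on leaving out the second active thione library (0.0557) or the first inactive thione library (0.1), and in a fit of both thiones alone (0.0616).

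Of the genes for users of coenzyme Q, 0 passed with either thione by edgeR, where 1.37% (active) and 0.158% (inactive) of all features changed. With the active thione edgeR called 0 of 10 reducer and 0 of 9 bc1 genes, with 0 and 0 at an unadjusted p under 0.05 and 0 and 0 by DESeq2, and medians of -0.02 and -0.17. With the inactive thione edgeR also called 0 and 0, with 6 and 1 at an unadjusted p under 0.05, while DESeq2 called SDH4 higher (0.82, adjusted p = 0.047), and the medians were 0.45 and 0.0039. Both inactive thione libraries were above both DMSO libraries for 7 of the 10 reducer genes, as for 32.2% of all features. The highest values were those of NDE2 (0.87) and SDH4 (0.85), while PUT1 (-0.65) was below DMSO in both libraries. In the tail precursor list edgeR called 0 of 9 with either thione, with 2 (active) and 6 (inactive) at an unadjusted p under 0.05. For these unadjusted counts too, the share of all features was not counted. DESeq2 called 0 of these 9 with the active thione, and HMG1 (-1.18, adjusted p = 0.00713) and ERG13 (-0.87, adjusted p = 0.0299) with the inactive one.

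Profiles over the 8 libraries, as log2 CPM centred on each gene's own mean, were compared by their root mean square difference. Among the 10 genes COQ5 and COQ10 were nearest to each other (0.11) and COQ6 and COQ8 farthest apart (0.62). Of 5054 other features with a mean log2 CPM of at least 3, those nearest to COQ6 were TES1 (0.11), PET191 (0.12) and TUF1 (0.12). Nearest to COQ7 were PDR15 (0.13), GRX2 (0.14) and PFU1 (0.14), and nearest to the mean of the 10 genes RTK1 (0.066), NCA2 (0.067) and DFM1 (0.076).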

How the data were processed

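The authors deposited 1 table with raw read counts per annotated feature and, beside them, normalized values, a signal equal to the count over a size factor of the library, per the file headers and the values. The submitters' processing notes name the build sacCer3 and the tools HTSeq, DESeq, TopHat and TopHat2 2.1.1. For strand and annotation a source was not given here, so reads of overlapping or antisense features may be mixed. No RefSeq gene overlaps COQ1 to COQ10. Features without RefSeq coordinates (1077 of 7122) could not be checked. The deposited size factors matched recomputed ones to within 0.0001, and the normalized values served only for that. Of the table, 4 empty lines were not analysed.

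Counts were tested with edgeR 4.0.16 (R 4.3.3): quasi-likelihood, TMM, filterByExpr (5696 features), all 8 libraries in 1 fit without a block, two-sided, Benjamini-Hochberg over all tested features, threshold 0.05. CPM use TMM-scaled totals. Log2 CPM used a prior count of 2. SE is the log2 fold change over the square root of F. P-values measure the spread between 2 cultures a group, called biological replicates by the series design. DESeq2 1.42.0 and the other settings are alternatives. The procedure was tested on simulated data. The genes, lists and the rule for named genes (all 10 members, all partners, the 3 smallest p per other list, thione calls, 3 nearest profiles) were chosen with earlier results of these data known. Coordinates and sequences are from RefSeq R64, which corresponds to sacCer3. Intervals cover the fit only.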

Additional observations from a re-analysis of the deposited data

How the results depend on the processing

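The COQ genes were re-tested under 13 alternatives. Of 520 gene and comparison values, 508 kept their side of the threshold, 8 lost it (COQ2 7 times, COQ6 once) and 4 gained it. The COQ genes called with CQ numbered 2 of 10, but 1 with the compared groups alone and 0 to 3 with 1 library left out. All features called with CQ numbered 758, and 367 to 1419 with 1 library left out, highest without CQ replicate 2. For the active thione they numbered 78, and 188 with DESeq2, 133 with the compared groups alone and 4 to 108 with 1 library left out. For the inactive thione they numbered 9, and 84 with DESeq2 and 1 to 18 with 1 library left out, and between the thiones 7, and 27 with DESeq2 and 3 to 10 with 1 library left out. Against the median of the other 8 genes, in place of their mean, the compound minus DMSO value of COQ6 was 0.54 for the active thione and 0.48 for the inactive one, and that of COQ7 with the inactive thione 0.18. No value that passed the test turned its sign. Of the COQ genes that did not pass, COQ3 turned its sign with CQ in 2 of 13 alternatives, COQ4, COQ8 and COQ9 with CQ in 1 each, and COQ7 and COQ8 with the active thione in 1 each. Replicates are matched between groups by number only, and whether a number marks a shared batch was not tested. Deviations from group means correlated at 0.331 to 0.43 among the 2 thione groups and DMSO. Between CQ and those groups the correlations were -0.153 to 0.215. With the replicate block 952 features were called for CQ, 174 for the active thione, 54 for the inactive thione and 13 between the thiones, and COQ1 (CQ, -0.63, edgeR adjusted p = 0.0257) and COQ6 (active thione, 0.66, edgeR adjusted p = 0.0383) passed, giving 3 and 1 of the 10 genes. GUT2 (CQ, 0.60, edgeR adjusted p = 0.0119), which makes 2 reducer genes higher, and ARO9 (inactive thione, -0.68, edgeR adjusted p = 0.0475) passed with it too. In 8 of the 10 genes replicate 2 was above replicate 1 in all 4 groups, as in 13.6% of tested features. With windows of 150 bases the heptamer stood in 1 of 10 COQ genes, 5 of 9 bc1 genes (9 at 300 bases), 3 of 10 reducer genes (6 at 300 bases) and 11.0% of all genes, the Puf3 motif in 5 of 10 COQ genes and 12.6% of all, and CCAAT in 4 of 10 COQ genes, 2 of 9 bc1 genes (7 at 300 bases), 4 of 10 reducer genes (7 at 300 bases) and 25.3% of all. COQ7, with the lowest counts, had the widest intervals.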
